A study of Homo sapiens with 12 samples.

Results

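Squamocin, an annonaceous acetogenin (ACG) that the study purified from Annona squamosa seeds, was given to 2 oral squamous carcinoma cell lines, and the question here is which genes and functions responded in opposite directions or in 1 line only. The groups were SCC15 cells given ACGs (the label for the squamocin treatment), SCC15 cells given DMSO, SCC25 cells given ACGs and SCC25 cells given DMSO, all of the WT genotype and all taken at 24 h, with 3 libraries in each group. Each line is 1 established line, and the sources used here do not say whether the 3 libraries came from separate cultures, so the p-values measure the spread between these libraries, which may be technical. The measured quantity is the normalized count, a read count divided by 1 size factor per library. The genes compared were the 14454 with a mean of at least 10 normalized counts in each line's table, of 26485 listed in both tables and 34227 listed in either. At the edge of that limit, RPL5P4 had a lower mean of 10 and was kept, and PTGES3L had one of 9.99 and was not. For each of them the log2 fold change of squamocin over DMSO, on log2(normalized count + 1), was taken in SCC15 and in SCC25, and the difference of the responses is the first minus the second. Fold changes below are on that log2 scale, which understates the changes of low genes.

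Squamocin belongs to a family of long-chain lactones known to block Complex I, the entry point of electrons into the mitochondrial respiratory chain. Cells short of respiratory ATP commonly draw on glycolysis, and cells under mitochondrial or endoplasmic reticulum stress induce the transcription factors ATF4 and CHOP, slow their translation and can stop cycling. Oral squamous carcinoma cells also carry a keratinocyte programme of keratins and desmosomes, and depend on growth factor signalling through EGFR and FGF receptors.

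The libraries held between 16665563 and 22748845 reads recovered from the normalized counts. One library stood apart by a chi-square per degree of freedom, taken over genes with enough reads in the 2 libraries compared. SCC15 ACGs replicate 3 differed from its 2 group mates by 71.6 and 63.5, against 1.72 to 11.0 for the other pairs of group mates. Several counts are therefore also given without SCC15 ACGs replicate 3. Of 10 squamous epithelial markers, 8 to 10 had a mean of at least 10 normalized counts in each group, and their summed level ran from 118618 to 124775 normalized counts in SCC15 with DMSO, from 222105 to 381911 in SCC15 with squamocin, from 35621 to 35891 in SCC25 with DMSO and from 59786 to 62816 in SCC25 with squamocin. KRT17, at up to 354160, made up most of the highest sum, while KRT5, TP63 and EPCAM went down to 2.49, 6.22 and 2.28 in the lowest library of each. The 7 fibroblast markers summed to 486 to 1228 normalized counts in every library and the 5 leukocyte markers to 19 to 540. The 4 endothelial markers summed to 66 to 178 in SCC15, where CDH5 and KDR were at 0 in all libraries, to 233 to 296 in SCC25 with DMSO, where 3 of them had a mean of at least 10, and to 20 to 38 in SCC25 with squamocin. The part of such markers in the results was not tested. The 2 tables were normalized separately, so a level is compared only within its own line. Reads carry no strand, and the annotation places CA9, SLC16A3, MYBBP1A, EIF3L, MCM2, CENPA, TIGAR, MDM2, LOXL2, ZEB1, RSAD2, MT-ND4, FAM222B, GPRC5B, TRAM2, IFITM1, MATN2 and DHFR2 over part of a neighbouring gene, so their counts are uncertain to that extent. The same holds for genes with near-identical copies, here GAPDH, HSPA6, HIST1H2BJ, IFNL2, DHFR2 and the ribosomal protein genes.

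Most genes answered squamocin in at least 1 line, and more genes were called in SCC25 than in SCC15. Within SCC15, 4684 of the 14454 genes (32.4%) rose and 4236 (29.3%) fell. Within SCC25, 5851 (40.5%) rose and 5474 (37.9%) fell. The difference of the responses itself passed an adjusted p of 0.05 (limma, Benjamini-Hochberg) for 7540 genes (52.2%): it was positive, meaning more up or less down in SCC15, for 3779 (26.1%), and negative for 3761 (26.0%). Such calls do not need a large change: of the called genes, 1585 differed by more than 1 log2 unit upward and 1527 downward. The even split depends on how the lines are scaled to each other. With the libraries of each line set to equal totals instead of the deposited size factors, the median difference over all genes moved from 0.012 to -0.27, and the split became 2397 positive against 5454 negative.

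Opposite responses were common. 786 genes (5.44%) rose in SCC15 and fell in SCC25, and 674 (4.66%) fell in SCC15 and rose in SCC25, each called in both lines and in the difference. A response called in SCC15 alone was found for 536 genes that rose (3.71%) and 656 that fell (4.54%). A response called in SCC25 alone was found for 1210 that rose (8.37%) and 1177 that fell (8.14%). The larger SCC25 counts depended on the separate fit of each line and on 1 library. With calls from a joint fit of both lines, 929 rose and 906 fell in SCC15 only, against 935 and 938 in SCC25 only. Without SCC15 ACGs replicate 3 the counts were 741 and 891 in SCC15 only and 920 and 882 in SCC25 only. Other genes moved the same way in both lines by unequal amounts: 759 rose more in SCC15 (5.25%) and 649 more in SCC25 (4.49%), while 532 fell more in SCC15 (3.68%) and 476 more in SCC25 (3.29%). The remaining 85 called genes were called in neither line alone. With equal library totals the opposite classes held 331 and 1240 genes, and without SCC15 ACGs replicate 3 they held 1169 and 1010. When the difference and both responses had each to exceed 1 log2 unit, 32 and 30 opposite genes were left. Of the main opposite genes, 210 of 786 and 427 of 674 stayed in their class under TMM factors, equal totals, median centring, edgeR, DESeq2 and the omission of SCC15 ACGs replicate 3 alike. In the same settings 96 of 536 genes that rose in SCC15 only kept their class, as did 341 of 656 that fell there only. For SCC25 only, 191 of 1210 that rose and 190 of 1177 that fell kept theirs.

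**Figure D1:**
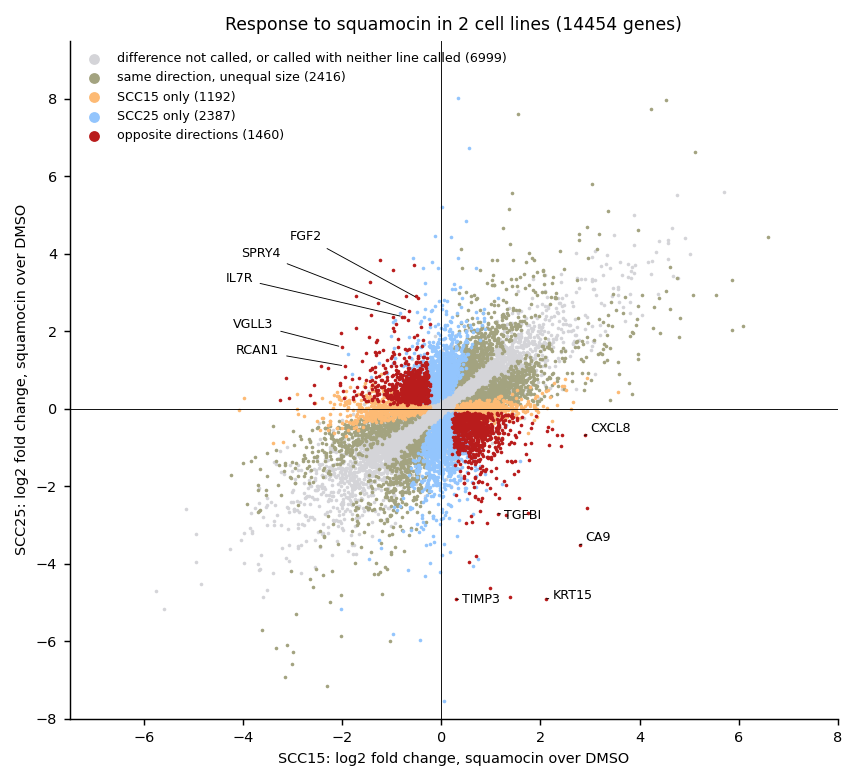
Each point is 1 of the 14454 genes, placed by its log2 fold change (squamocin over DMSO, 3 libraries each) in SCC15 on the x axis and in SCC25 on the y axis, and coloured by response class with the number of genes in each. The 1460 genes with opposite responses lie above 0 on one axis and below 0 on the other, with CA9 at 2.79 and -3.52 and RCAN1 at -1.94 and 1.10.

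Among well-expressed coding genes, those with the largest difference that rose in SCC15 and fell in SCC25 were CA9, TIMP3, EVA1C, TGFBI, C15orf48 and CXCL8. They were named only if treated and DMSO libraries did not overlap in either line, so that separation was set by the choice. It held for 8589 of the 14454 genes tested and for 767 of the 786 genes of this class. CA9 (chr9:35673856-35681159), a membrane carbonic anhydrase known as a target of the hypoxia-inducible factor, stood at 42.7, 38.0 and 37.5 normalized counts in the SCC15 DMSO libraries and at 189, 259 and 439 with squamocin. In SCC25 CA9 was at 1655, 1599 and 1540 normalized counts with DMSO and at 131, 157 and 128 with squamocin. The treated libraries thus lay above all DMSO libraries in SCC15 and below all of them in SCC25, with log2 fold changes of 2.79 in SCC15 and -3.52 in SCC25 and a difference of 6.32 (SE 0.32, adjusted p = 2.65e-08). TGFBI (chr5:136028895-136063818), a matrix protein that binds integrins, stood at 2912, 2835 and 2996 normalized counts in the SCC15 DMSO libraries and at 6085, 6340 and 6994 with squamocin. In SCC25 TGFBI was at 5752, 5906 and 5877 normalized counts with DMSO and at 841, 854 and 990 with squamocin. Its log2 fold changes were 1.15 in SCC15 and -2.71 in SCC25, a difference of 3.86 (SE 0.11, adjusted p = 4.29e-10). CXCL8 (chr4:73740506-73743716), the neutrophil chemokine interleukin-8, stood at 286, 267 and 292 normalized counts in the SCC15 DMSO libraries and at 1748, 1885 and 2798 with squamocin. In SCC25 CXCL8 was at 9728, 9587 and 9859 normalized counts with DMSO and at 5955, 6084 and 6003 with squamocin. The SCC15 groups stood far apart and the SCC25 groups less so, with fold changes of 2.89 in SCC15 and -0.69 in SCC25 and a difference of 3.59 (SE 0.19, adjusted p = 3.41e-08).

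EVA1C (chr21:32412006-32515397), a membrane protein, stood at 580, 610 and 657 normalized counts in the SCC15 DMSO libraries and at 919, 922 and 1175 with squamocin. In SCC25 EVA1C was at 430, 452 and 453 normalized counts with DMSO and at 30.5, 29.1 and 33.3 with squamocin. The groups did not overlap in either line, and the difference was 4.50 (SE 0.15, adjusted p = 1.07e-09). C15orf48 (chr15:45430529-45448761), which encodes a small protein, stood at 364, 389 and 393 normalized counts in the SCC15 DMSO libraries and at 571, 675 and 980 with squamocin. In SCC25 C15orf48 was at 5843, 6019 and 5770 normalized counts with DMSO and at 712, 759 and 832 with squamocin. The change in SCC25 was the larger, and the difference was 3.86 (SE 0.21, adjusted p = 4.35e-08). TIMP3 (chr22:32801701-32863043), an inhibitor of matrix metalloproteinases, stood at 1750, 1694 and 1814 normalized counts in the SCC15 DMSO libraries and at 2016, 2087 and 2390 with squamocin. In SCC25 TIMP3 was at 549, 594 and 555 normalized counts with DMSO and at 28.0, 17.7 and 11.1 with squamocin. Nearly all of its difference of 5.22 (SE 0.31, adjusted p = 8.16e-08) came from the fall in SCC25: the SCC15 change was only 0.30, and with equal library totals it became -0.20 (adjusted p = 0.0492), so TIMP3 then fell in both lines. With equal totals EVA1C was called in SCC25 only.

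Under the same condition of no overlap, the largest differences of the other sign belonged to HIST1H2BJ, VGLL3, FGF2, SPRY4, IL7R and RCAN1. FGF2 (chr4:122826708-122898236), basic fibroblast growth factor, stood at 8955, 9328 and 8884 normalized counts in the SCC15 DMSO libraries and at 6183, 6203 and 7225 with squamocin. In SCC25 FGF2 was at 496, 488 and 510 normalized counts with DMSO and at 3812, 3922 and 3117 with squamocin. Treated libraries were below every DMSO library in SCC15 and above every one in SCC25, with fold changes of -0.47 in SCC15 and 2.85 in SCC25 and a difference of -3.33 (SE 0.13, adjusted p = 3.75e-09). SPRY4 (chr5:142310427-142326455), a feedback inhibitor of receptor tyrosine kinase signalling, stood at 594, 559 and 656 normalized counts in the SCC15 DMSO libraries and at 413, 435 and 314 with squamocin. In SCC25 SPRY4 was at 160, 199 and 214 normalized counts with DMSO and at 1019, 1122 and 1139 with squamocin. The fold changes were -0.65 in SCC15 and 2.52 in SCC25 and the difference -3.17 (SE 0.19, adjusted p = 8.82e-08). IL7R (chr5:35852695-35879603), the interleukin-7 receptor, stood at 13348, 13797 and 13455 normalized counts in the SCC15 DMSO libraries and at 7725, 8279 and 7971 with squamocin. In SCC25 IL7R was at 237, 241 and 267 normalized counts with DMSO and at 1346, 1418 and 1111 with squamocin. The groups did not overlap in either line, with log2 fold changes of -0.76 in SCC15 and 2.37 in SCC25 and a difference of -3.13 (SE 0.12, adjusted p = 4.15e-09).

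RCAN1 (chr21:34513142-34615142), an inhibitor of the phosphatase calcineurin, stood at 5586, 6475 and 6046 normalized counts in the SCC15 DMSO libraries and at 1333, 1494 and 1940 with squamocin. In SCC25 RCAN1 was at 625, 580 and 574 normalized counts with DMSO and at 1317, 1338 and 1172 with squamocin. All treated libraries lay below the DMSO libraries in SCC15 and above them in SCC25, a difference of -3.04 (SE 0.17, adjusted p = 4.49e-08). VGLL3 (chr3:86876388-86991119), a cofactor of TEAD transcription factors, stood at 222, 236 and 269 normalized counts in the SCC15 DMSO libraries and at 66.1, 91.2 and 34.8 with squamocin. In SCC25 VGLL3 was at 134, 105 and 134 normalized counts with DMSO and at 356, 409 and 360 with squamocin. The spread of the SCC15 libraries with squamocin was wide, but they stayed below every DMSO library, and the difference was -3.59 (SE 0.36, adjusted p = 5.24e-06). HIST1H2BJ (chr6:27125897-27132750), a replication-type histone H2B gene, stood at 128, 164 and 147 normalized counts in the SCC15 DMSO libraries and at 95.1, 88.9 and 114 with squamocin. In SCC25 HIST1H2BJ was at 73.3, 61.2 and 60.2 normalized counts with DMSO and at 848, 886 and 836 with squamocin. The rise in SCC25 was the larger part of its difference of -4.26 (SE 0.19, adjusted p = 9.75e-09). H2B genes are nearly identical copies of each other, so reads may be split among them.

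**Figure D2:**
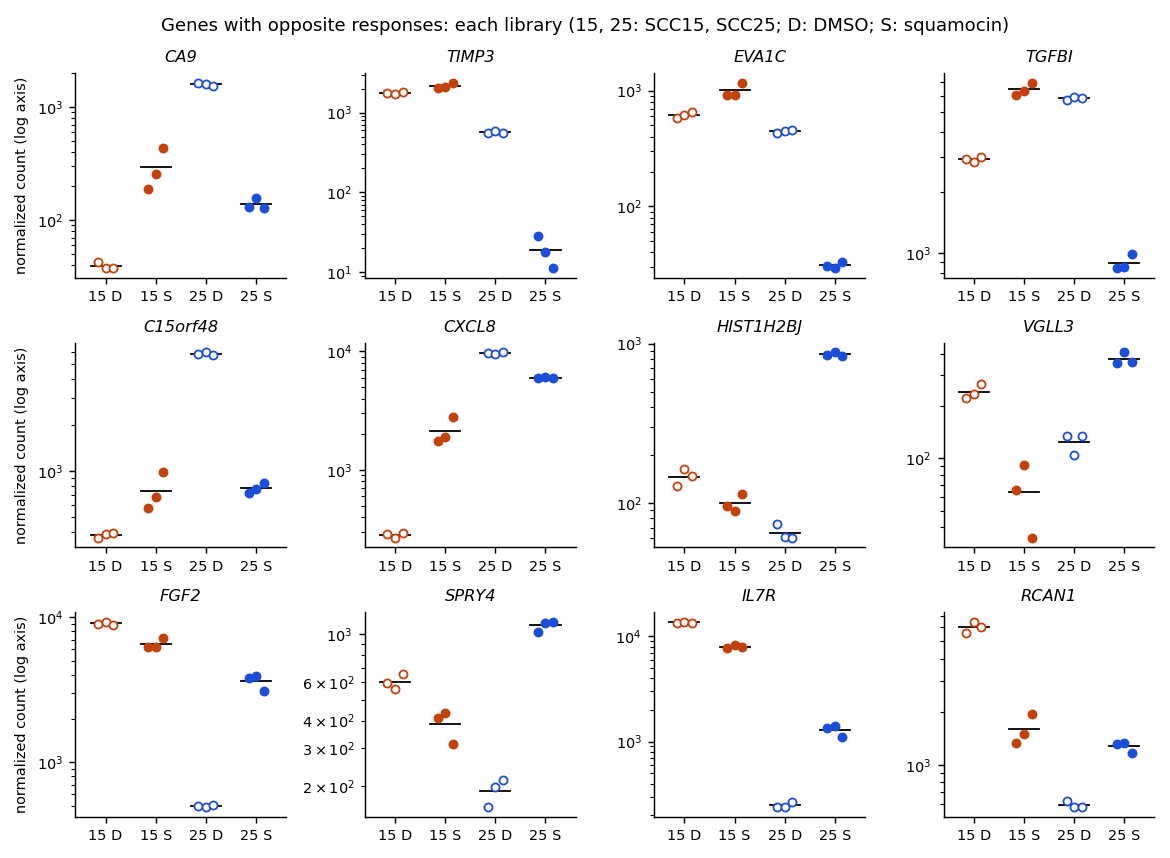
Normalized counts (log axes, which differ in range) of 12 genes in each of the 12 libraries, with open points for DMSO, filled points for squamocin, orange for SCC15, blue for SCC25 and a bar at each group mean. In the first 6 genes the filled points lie above the open ones in SCC15 and below them in SCC25, and in the last 6 the order is turned round. The lack of overlap between treatments in either line was a condition for choosing these genes.

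The opposite classes are described next by features that the contrast did not use, without a test. Genes that rose in SCC15 and fell in SCC25 had a median genomic span of 19554 bp, and genes that fell in SCC15 and rose in SCC25 one of 55679 bp, against 26478 bp over all genes tested. The genes called in SCC15 alone had median spans of 15833 bp for those that rose and 52891 bp for those that fell, while in SCC25 alone the risers spanned 44201 bp and the fallers 26030 bp. Coding genes made up 95.7% and 94.5% of the opposite classes and 83.3% of all genes tested. Their share was 82.3% to 92.4% in the other classes called in at least 1 line. It was 76.2% where no difference was called, so a raised share was not particular to the opposite classes. RefSeq promoter windows on GRCh38.p14, 250 bases before to 50 bases after the start, were matched by gene to 632 of 786 and 549 of 674 opposite genes. Shares are set beside all 27305 windows of the table, which include genes not expressed here, and beside the 10442 tested genes with a window, which are only 72.2% of those tested, so the second share is void as a check and both are descriptions. The E-box CACGTG, the site of MYC and MAX dimers, was present in 13.0% of the genes that rose in SCC15 and 8.01% of those that rose in SCC25, against 7.43% of all windows and 10.2% of tested genes. The hypoxia response element core ACGTG, which every E-box also contains and which was added with the results known, was in 31.8% and 25.1%, against 21.6% and 27.1%. For both motifs the first class lay above and the second below the share of tested genes, while both classes lay above the share of all windows. The direction for the second class thus depends on the share chosen. The interferon-stimulated response element GAAANNGAA was in 5.38% and 7.29%, against 8.29% and 6.52%. The ATF4 composite element TGATGNAA was in 0.791% and 2.00%, against 3.67% and 1.60%. The antioxidant response element TGANNNNGC was in 41.6% and 44.8%, against 42.1% and 43.0%. The median GC content of the windows was 67.7% and 65.3%, against 65.7% for tested genes with a window. Both strands were searched, and a match is a description of letters, not of binding.

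Functions were compared through 41 gene lists, each described by the median response of its members in each line and by counts of called members beside the shares over all genes given above. The median over all genes was 0.043 in SCC15 and 0.019 in SCC25. The largest positive median differences belonged to glycolysis (1.25), cytosolic ribosomal proteins (1.00), hypoxia-inducible factor targets (0.91), translation initiation factors (0.76) and DNA replication (0.66). The largest negative ones belonged to mitosis and kinetochore genes (-0.65), the TGF-beta and SMAD pathway (-0.53) and the protein genes of the mitochondrial genome (-0.50). With equal library totals the median difference of glycolysis was 0.96 and that of mitosis genes -0.94, and the medians of 7 lists turned from positive to negative: keratins, matrix and mesenchymal genes, NF-kappaB genes, mitochondrial ribosomal proteins, apoptosis regulators, autophagy and lysosome genes, and NRF2 targets. The genes named in each list are those with the largest called differences and opposite members.

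**Figure D3:**
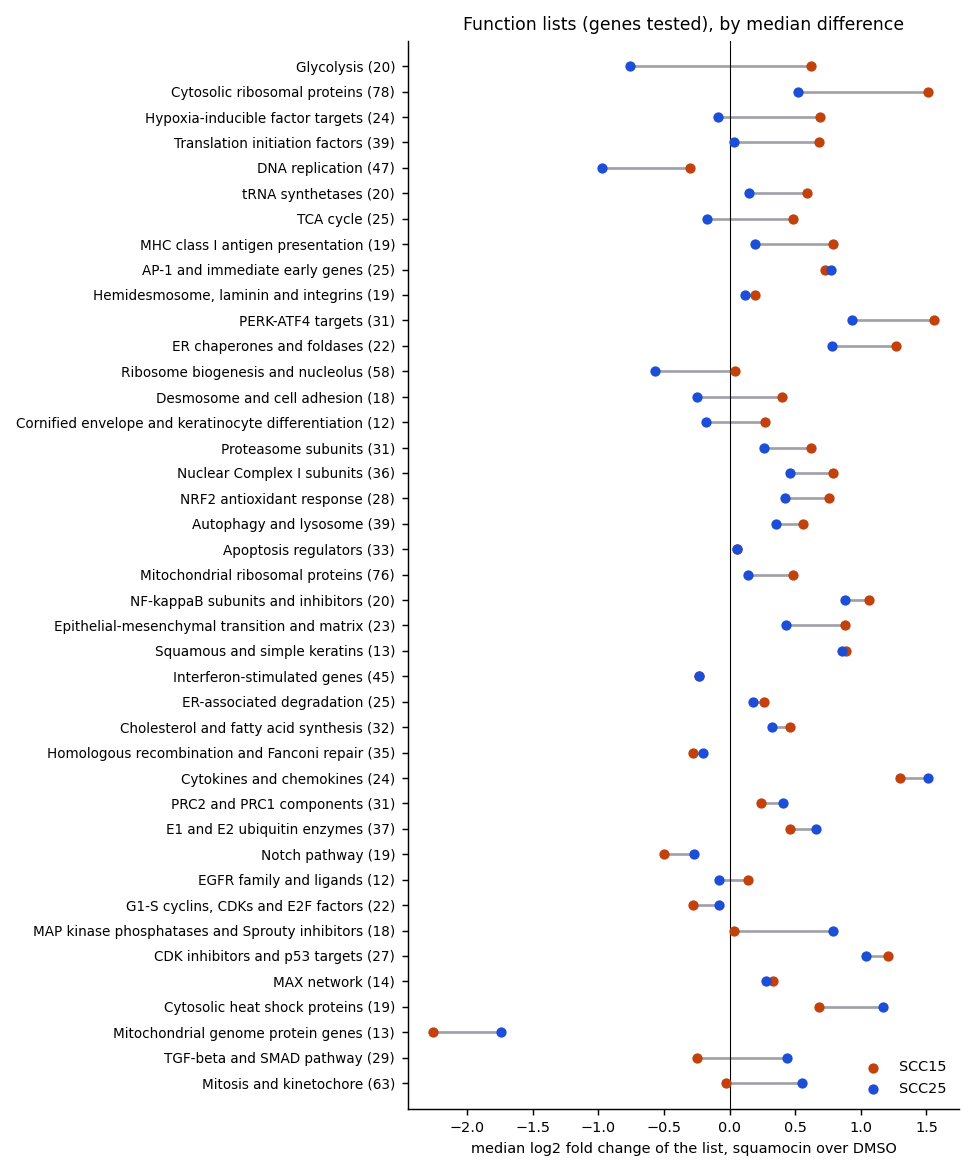
Median log2 fold change (x axis, squamocin over DMSO) of each of 41 function lists in SCC15 (orange) and SCC25 (blue), with the number of genes tested in brackets and the lists ordered by the median difference of the responses. Glycolysis, at 0.62 in SCC15 and -0.76 in SCC25, stands at the top and mitosis and kinetochore genes, at -0.029 and 0.55, at the bottom.

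Glycolysis genes mostly rose in SCC15 and fell in SCC25. Of 20 glycolysis genes tested, 15 (75.0%) rose in SCC15 and fell in SCC25, against 5.44% of all genes, and 0 did the reverse. 18 members rose in SCC15 and 17 fell in SCC25. The list's median was 0.62 in SCC15 and -0.76 in SCC25. The glyceraldehyde-3-phosphate dehydrogenase gene GAPDH was at 40118, 38923 and 39244 normalized counts in SCC15 with DMSO and 83542, 92706 and 100231 with squamocin, and at 60259, 59382 and 59372 and 31320, 30262 and 35879 in SCC25. Every treated library was above the DMSO range in SCC15 and below it in SCC25, with a difference of 2.10 (SE 0.15, adjusted p = 2.53e-07).

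The aldolase gene ALDOA (fold changes of 1.41 in SCC15 and -1.34 in SCC25), the phosphofructokinase gene PFKP (0.63 in SCC15 and -1.35 in SCC25), the phosphoglycerate kinase gene PGK1 (0.82 in SCC15 and -0.95 in SCC25), the enolase gene ENO1 (0.61 in SCC15 and -0.89 in SCC25) and the lactate exporter gene SLC16A3 (0.42 in SCC15 and -0.88 in SCC25) moved in the same opposed way. TKT, the transketolase of the pentose phosphate pathway that the antioxidant list holds, changed by 1.21 in SCC15 and -1.11 in SCC25, a difference of 2.32 (SE 0.11, adjusted p = 1.92e-08). ENO2, the neuronal enolase, rose in SCC15 by 1.93 and was at -0.0046 (95% interval -0.12 to 0.11) in SCC25, where it was not called. The other members outside the opposite class were the glucose transporter gene SLC2A1, which rose in SCC15 only, LDHA, which fell in SCC25 only, PFKFB3, which fell in both lines, and LDHB, for which no difference was called. With equal library totals 8 members were opposite, PFKP, ENO1 and SLC16A3 were called in SCC25 only, and SLC16A3 turned to -0.074 in SCC15.

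Tricarboxylic acid cycle genes, which act in the mitochondrial matrix, were opposed in part. 9 of 25 members (36.0%) rose in SCC15 and fell in SCC25, and the list's median was 0.48 in SCC15 and -0.17 in SCC25. The isocitrate dehydrogenase gene IDH2 changed by 0.81 in SCC15 and -0.54 in SCC25, the malate dehydrogenase gene MDH2 by 0.95 in SCC15 and -0.17 in SCC25 and the succinate dehydrogenase gene SDHA by 0.51 in SCC15 and -0.49 in SCC25. With equal totals 5 members were in that class and SDHA was called in SCC25 only.

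Targets of the hypoxia-inducible factor, which switches on glycolytic and pH-regulating genes when oxygen is low, had a median of 0.69 in SCC15 and -0.085 in SCC25. There were 15 positive and 2 negative differences among 24 (15 and 4 with equal totals), and 6 (25%) were opposite. Beside CA9, the collagen-modifying hydroxylases PLOD1 (0.77 in SCC15 and -1.53 in SCC25) and P4HA1 (0.65 in SCC15 and -0.94 in SCC25) rose in SCC15 and fell in SCC25. NDRG1 rose in SCC15 by 2.62 and was at -0.0028 (95% interval -0.11 to 0.10) in SCC25. DDIT4, an inhibitor of mTORC1, rose in both lines, by 2.95 in SCC15 and 0.93 in SCC25. With equal totals PLOD1 and P4HA1 were called in SCC25 only and the list's median difference was 0.62.

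Stretches of 42 bases upstream of the start are shown for 5 of the opposite genes whose windows hold the hypoxia response element core. They let the letters be read beside the values. Other opposite genes with a core, such as ALDOA and PGK1, are not shown, and PLOD1 of the hypoxia list has no core in its window. Capitals mark ACGTG or its reverse complement CACGT. The glucose-6-phosphate isomerase gene GPI changed by 1.00 in SCC15 and -0.62 in SCC25 and the aldolase gene ALDOC by 1.38 in SCC15 and -0.55 in SCC25. Across the glycolysis list 8 of 20 windows hold the core on either strand, against 21.6% of all windows and 27.1% of tested genes with a window. As above, the second share is void as a check and both are descriptions. The median GC content was 70.0% in the list's windows and 65.7% in those of tested genes. Of the 15 opposite glycolysis genes, 9 have no core in their window. Positions are chr9:35673886-35673927 (plus strand) for CA9, chr12:6535166-6535207 (plus) for GAPDH, chr19:34364812-34364853 (plus) for GPI, chr17:28576900-28576941 (minus) for ALDOC and chr10:73096929-73096970 (minus) for P4HA1, on GRCh38.p14. The starts are those of RefSeq. The deposited annotation begins CA9 earlier, so the CA9 stretch lies within the gene span given above.
CA9: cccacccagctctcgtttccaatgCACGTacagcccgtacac
GAPDH: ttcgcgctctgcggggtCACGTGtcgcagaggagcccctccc
GPI: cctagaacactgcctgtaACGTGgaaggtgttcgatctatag
ALDOC: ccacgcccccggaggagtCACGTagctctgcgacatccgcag
P4HA1: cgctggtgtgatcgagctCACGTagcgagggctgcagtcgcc

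**Figure D4:**
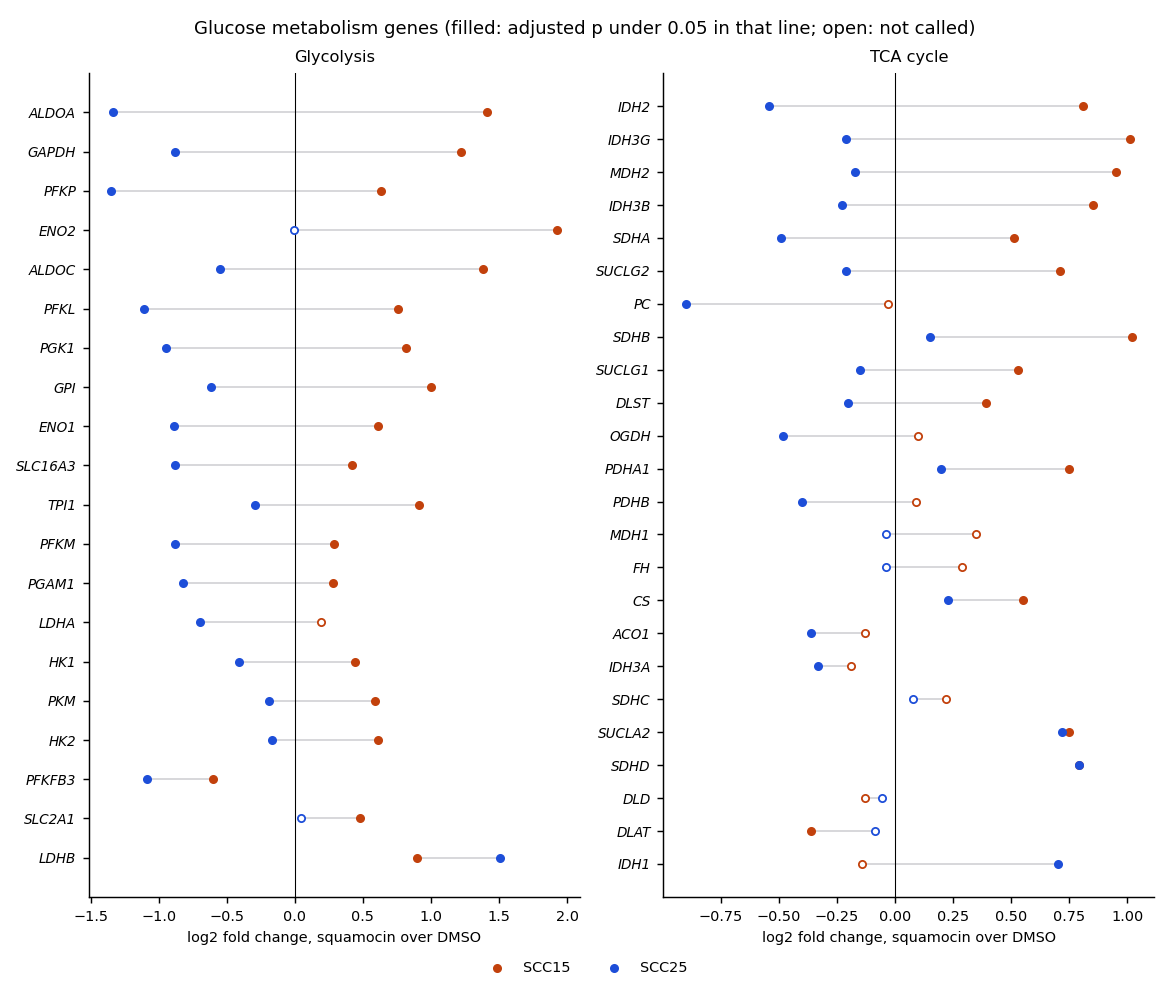
Log2 fold change (x axis, squamocin over DMSO) of the tested glycolysis genes (left) and tricarboxylic acid cycle genes (right) in SCC15 (orange) and SCC25 (blue), with filled points where the line's adjusted p was under 0.05 and genes ordered by the difference of the responses. 15 of 20 glycolysis genes have a filled orange point right of 0 and a filled blue point left of it, and 1 of the 25 cycle genes tested is not shown.

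Ribosomal protein genes rose in both lines, more in SCC15. All 78 cytosolic ribosomal protein genes tested rose in SCC15, and 68 rose and 4 fell in SCC25. The difference was called for 62 of them (79.5%), each time positive, and 52 rose in both lines but more in SCC15. The list's median difference of 1.00 became 0.75 without SCC15 ACGs replicate 3, with 69 positive and 2 negative differences. With equal totals it was 0.72, with 56 positive and 0 negative. RPL3 was at 11400, 11207 and 11406 normalized counts in SCC15 with DMSO and 29732, 31200 and 44215 with squamocin, and at 50698, 49648 and 51126 and 36878, 36110 and 39728 in SCC25. It was 1 of 4 members with opposite responses, as was RPS14 (1.45 in SCC15 and -0.22 in SCC25), and with equal totals 11 members were opposite.

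Ribosome biogenesis and nucleolar genes fell in SCC25 (41 of 58) and were divided in SCC15, where 14 rose and 16 fell. 15 fell in SCC25 only and 7 were opposite, among them the endonuclease gene NOB1 (1.07 in SCC15 and -1.18 in SCC25), MYBBP1A (0.34 in SCC15 and -1.35 in SCC25) and the fibrillarin gene FBL (0.97 in SCC15 and -0.48 in SCC25). With equal totals 3 members were in that class and MYBBP1A turned to -0.16 in SCC15. Translation initiation factors had a median of 0.68 in SCC15 and 0.037 in SCC25, with 7 of 39 opposite, such as the eIF3 subunit genes EIF3L (0.68 in SCC15 and -1.35 in SCC25) and EIF3D (1.23 in SCC15 and -0.75 in SCC25). With equal totals EIF3L was called in SCC25 only. The RNA helicase gene EIF4A1 rose in SCC15 by 1.91 and was at -0.035 (95% interval -0.23 to 0.16) in SCC25. The tRNA synthetase genes had 15 positive and 1 negative differences among 20 (11 and 3 with equal totals). QARS, which charges glutamine tRNA, changed by 0.73 in SCC15 and -1.07 in SCC25.

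The replication and division parts of the cell cycle programme parted between the lines. DNA replication genes fell in SCC25 (40 of 47 members) and less in SCC15 (24 members), with medians of -0.97 and -0.30. 32 members (68.1%) had a positive difference against 26.1% of all genes (21 members with equal totals), 14 fell in SCC25 only and 14 fell in both but more in SCC25. MCM2, a subunit of the replicative helicase, was at 2457, 2425 and 2468 normalized counts in SCC15 with DMSO and 1405, 1499 and 1017 with squamocin, and at 3385, 3491 and 3512 and 304, 258 and 318 in SCC25. The SCC25 loss was far deeper, and the difference was 2.64 (SE 0.17, adjusted p = 1.57e-07). MCM3 fell in both lines, by 0.70 in SCC15 and 2.68 in SCC25 on the log2 scale. MCM5 and the polymerase delta gene POLD1 fell in SCC25, with -2.23 and -1.93, and stood at -0.053 (95% interval -0.25 to 0.14) and -0.063 (95% interval -0.26 to 0.13) in SCC15. With equal totals both fell in both lines. The licensing factor gene CDT1 rose in SCC15 and fell in SCC25 (0.76 in SCC15 and -1.0 in SCC25). In bulk RNA, fewer cells in a cycle phase and less RNA per cell cannot be told apart.

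Mitosis and kinetochore genes mostly rose in SCC25 and were divided in SCC15. 42 of 63 rose in SCC25 and 10 fell, whereas in SCC15 17 rose and 22 fell. 44 members (69.8%) had a negative difference, against 26.0% of all genes. 15 rose in SCC25 only, 7 fell in SCC15 only, 6 fell in SCC15 and rose in SCC25, and 1 did the reverse. Without SCC15 ACGs replicate 3 the members that fell in SCC15 and rose in SCC25 numbered 12, and with equal totals 17. The kinesin gene KIF14 was at 1478, 1377 and 1315 normalized counts in SCC15 with DMSO and 832, 765 and 630 with squamocin, and at 999, 1025 and 1049 and 1918, 2126 and 1670 in SCC25. The treated libraries were below the DMSO libraries in SCC15 and above them in SCC25, a difference of -1.80 (SE 0.15, adjusted p = 1.20e-06). SGO1, the protector of centromeric cohesion, changed by -0.47 in SCC15 and 1.00 in SCC25. BIRC5, which encodes survivin, and CENPA, the centromeric histone H3, rose in SCC25 by 1.88 and 1.56 and were at 0.20 (95% interval -0.16 to 0.56) and 0.08 (95% interval -0.23 to 0.39) in SCC15, and with equal totals both fell there, to -0.30 and -0.42.

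**Figure D5:**
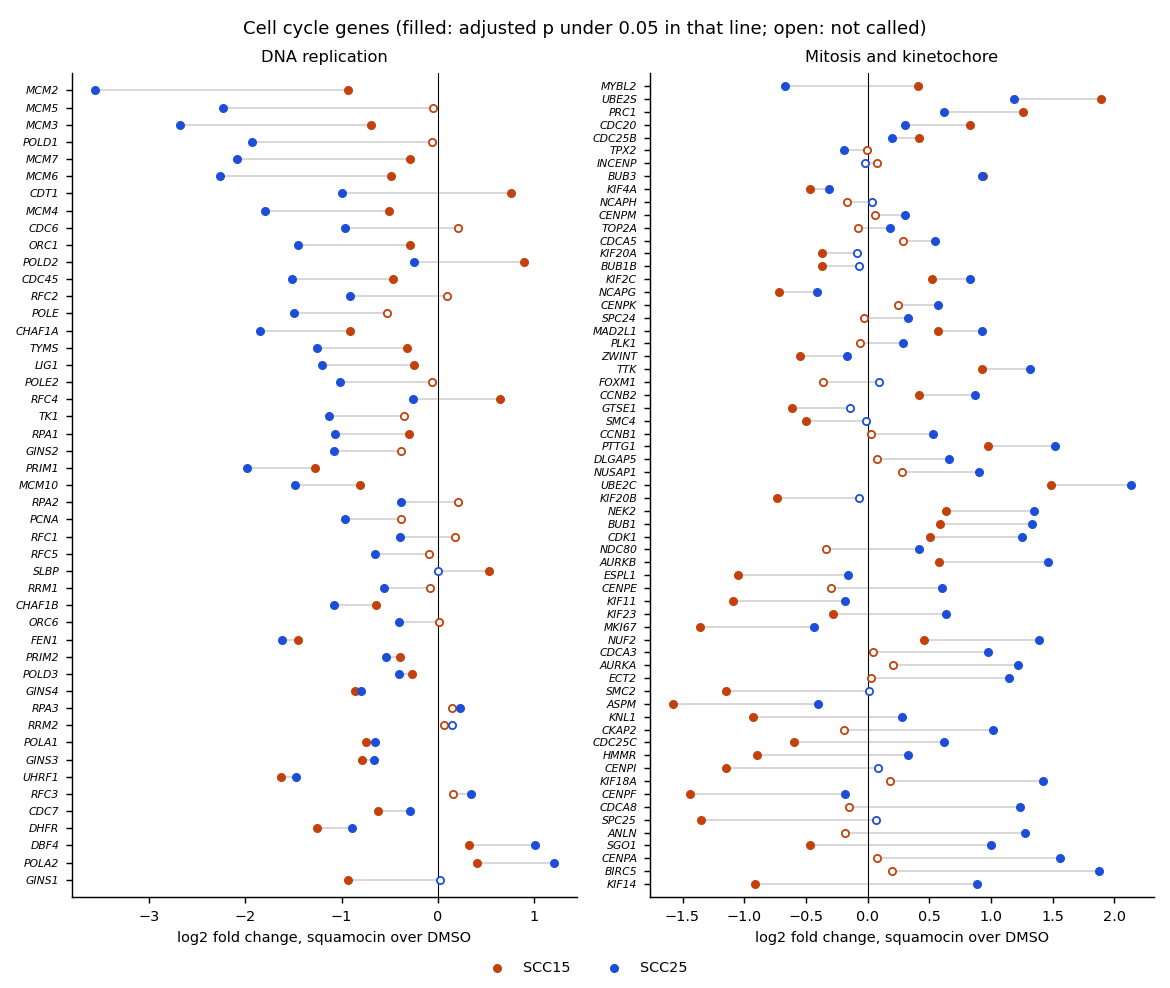
Log2 fold change (x axis, squamocin over DMSO) of each tested DNA replication gene (left) and mitosis and kinetochore gene (right) in SCC15 (orange) and SCC25 (blue), with filled points where the line's adjusted p was under 0.05 and genes ordered by the difference of the responses. On the left 40 of 47 members fell in SCC25, with MCM2 at -3.56, and on the right 42 of 63 members rose there, with BIRC5 at 1.88.

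CDK inhibitors and p53 targets mostly rose in both lines. Of 27 CDK inhibitors and p53 targets, 17 rose in SCC15 and 24 in SCC25. 4 fell in SCC15 and rose in SCC25, among them the p53 targets TIGAR (-1.39 in SCC15 and 1.05 in SCC25), BTG2 (-0.86 in SCC15 and 0.76 in SCC25) and MDM2 (-0.30 in SCC15 and 0.80 in SCC25), the last of which encodes the ubiquitin ligase of p53. The G1-S cyclin, CDK and E2F list had 6 positive and 11 negative differences among 22. The homologous recombination and Fanconi list had 6 positive and 8 negative differences among 35 (2 and 15 with equal totals). Among 33 apoptosis regulators the opposite members went both ways, 4 up and 3 down in SCC15, against 0 and 3 with equal totals.

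Feedback inhibitors of growth factor signalling were split. Of 18 MAP kinase phosphatase and Sprouty genes, 4 (22.2%) fell in SCC15 and rose in SCC25, against 4.66% of all genes: SPRY4, SPRY2 (-0.35 in SCC15 and 0.92 in SCC25), SPRED1 (-0.55 in SCC15 and 0.75 in SCC25) and SPRED2, all of the Sprouty and Spred family. 2 members did the reverse. DUSP9, a phosphatase of ERK, rose from 40.9, 32.4 and 23.6 to 98.5, 98.0 and 129 normalized counts in SCC15 and fell from 85.4, 82.8 and 76.1 to 14.0, 10.4 and 11.1 in SCC25, a difference of 4.43 (SE 0.32, adjusted p = 2.88e-07) at a low level. Immediate early genes had 12 positive and 7 negative differences among 25. FOS fell far more in SCC25 (-1.24 in SCC15 and -4.22 in SCC25), and EGR3 fell in SCC25 by 3.71 on the log2 scale while standing at 0.17 (95% interval -0.51 to 0.85) in SCC15. The EGFR family list had 5 positive and 3 negative differences among 12 (5 and 5 without SCC15 ACGs replicate 3, 2 and 6 with equal totals), and the Notch list 4 positive and 6 negative among 19 (7 and 6 without SCC15 ACGs replicate 3).

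In the TGF-beta and SMAD list 19 of 29 members (65.5%) had a negative difference, 17 rose in SCC25 and 14 fell in SCC15. The receptor genes TGFBR1 and ACVR1 fell in SCC15 and rose in SCC25 (-0.44 in SCC15 and 1.20 in SCC25 for TGFBR1, and -0.41 in SCC15 and 1.03 in SCC25 for ACVR1). With equal totals 6 members were opposite in that way instead of 3. ID1, a target of bone morphogenetic protein signalling, fell in both lines, from 9441, 8642 and 8992 to 1694, 1877 and 3353 normalized counts in SCC15 and from 5795, 5633 and 5418 to 85.2, 120 and 82.2 in SCC25. The SCC25 fall was the deeper, and the difference was 3.85 (SE 0.29, adjusted p = 4.94e-07).

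Several epithelial adhesion genes rose in SCC15 and fell in SCC25. Of 18 desmosome and adhesion genes tested, 6 (33.3%) rose in SCC15 and fell in SCC25, including the plakophilin genes PKP1 (0.95 in SCC15 and -1.25 in SCC25) and PKP3 (0.66 in SCC15 and -0.94 in SCC25) and the plakoglobin gene JUP (1.14 in SCC15 and -0.17 in SCC25). The tight junction scaffold gene TJP1 did the reverse (-1.0 in SCC15 and 0.25 in SCC25). With equal totals 1 member was in the first class, PKP1 and PKP3 were called in SCC25 only, and TJP1 was called in SCC15 only. Among 13 keratins, 4 rose in SCC15 and fell in SCC25 (2 with equal totals). KRT15, a keratin of basal cells, rose from 17.9, 16.6 and 27.1 to 93.9, 74.1 and 107 normalized counts in SCC15 and fell from 10773, 10639 and 10534 to 342, 327 and 396 in SCC25. The groups did not overlap in either line, and the difference was 7.03 (SE 0.24, adjusted p = 1.07e-09). The calprotectin subunit gene S100A9, of the differentiation list, fell in both lines, from 688, 596 and 731 to 92.7, 133 and 194 in SCC15 and from 30843, 30257 and 29025 to 183, 243 and 211 in SCC25, with a difference of 4.83 (SE 0.28, adjusted p = 7.50e-08).

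In the matrix and mesenchymal list 4 of 23 members rose in SCC15 and fell in SCC25, namely TIMP3, TGFBI and the lysyl oxidase genes LOX and LOXL2 (0.90 in SCC15 and -1.55 in SCC25 for LOXL2), and 2 did the reverse. With equal totals the counts were 2 and 3. ZEB1, a repressor of epithelial genes, was at 536, 538 and 525 normalized counts in SCC15 with DMSO and 423, 397 and 307 with squamocin, and at 6.45, 4.50 and 0.885 and 30.5, 29.1 and 33.3 in SCC25. The SCC25 reads were few, and the difference of -3.42 (SE 0.52, adjusted p = 1.40e-04) shrank to -2.08 with a pseudocount of 10. LOXL2 was called in SCC25 only with equal totals. Cornified envelope genes had 5 positive and 2 negative differences among 12, and hemidesmosome, laminin and integrin genes 10 positive and 5 negative among 19 (6 and 7 with equal totals).

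Of 45 interferon-stimulated genes tested, 17 rose and 24 fell in SCC25, where 40.5% and 37.9% of all genes did. Rises in SCC25 were thus about as common as over all genes, and falls were more common. In SCC15, 8 rose and 17 fell, against 32.4% and 29.3% of all genes, so rises were fewer there. 9 rose and 8 fell in SCC25 only, while the median was -0.23 in either line. OASL, of the oligoadenylate synthetase family, was at 66188, 67687 and 65812 normalized counts in SCC15 with DMSO and 56678, 65706 and 79742 with squamocin, and at 491, 495 and 472 and 3050, 3186 and 3147 in SCC25. The SCC15 groups overlapped and the SCC25 groups lay far apart, with a difference of -2.68 (SE 0.14, adjusted p = 3.91e-08). RSAD2, which encodes viperin, rose in SCC25 by 3.24 and HERC5, a ligase of ISG15, by 2.13, while their SCC15 values were -0.33 (95% interval -0.74 to 0.084) and -0.13 (95% interval -0.45 to 0.18). The RNA sensor gene DDX58 and the chemokine gene CXCL11 fell in SCC15 and rose in SCC25 (-1.28 in SCC15 and 0.60 in SCC25 for DDX58, and -0.69 in SCC15 and 1.52 in SCC25 for CXCL11). IFITM1, a membrane restriction factor, fell in SCC25 by 2.81 on the log2 scale and was at 0.033 (95% interval -0.31 to 0.37) in SCC15. These SCC15 values turned on 1 library: without SCC15 ACGs replicate 3, OASL, RSAD2 and HERC5 fell in SCC15 and so were opposite, IFITM1 fell in both lines, and opposite members of the list numbered 7 up and 11 down in SCC15 instead of 3 and 4. With equal totals OASL, RSAD2 and HERC5 were opposite and IFITM1 fell in both lines as well.

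Cytokines and chemokines rose in both lines (18 and 17 of 24), and 3 rose in SCC15 and fell in SCC25: CXCL8, IL1A and the interleukin-1 beta gene IL1B (1.48 in SCC15 and -0.68 in SCC25). IL6 did the reverse, falling from 5354, 5696 and 5420 to 2810, 3045 and 4675 normalized counts in SCC15 and rising from 66.9, 73.8 and 85.0 to 419, 338 and 364 in SCC25, a difference of -2.98 (SE 0.23, adjusted p = 5.02e-07). The chemokine gene CCL5 rose in SCC25 by 3.62 and was at -0.37 (95% interval -0.81 to 0.064) in SCC15, where it fell without SCC15 ACGs replicate 3 and with equal totals. NF-kappaB subunits and inhibitors had 8 positive and 5 negative differences among 20 (4 and 7 with equal totals), and MHC class I presentation genes 12 positive and 3 negative among 19.

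Stress responses were mostly shared in direction. PERK-ATF4 targets rose in both lines (25 and 25 of 31), with medians of 1.56 in SCC15 and 0.93 in SCC25, and 13 rose more in SCC15. With equal totals their median difference moved from 0.49 to 0.20, with 16 positive and 9 negative differences. GDF15, a stress cytokine, was at 29.0, 31.6 and 36.7 normalized counts in SCC15 with DMSO and 565, 543 and 862 with squamocin, and at 3315, 3307 and 3378 and 14239, 13182 and 15321 in SCC25. GDF15 rose in both lines, by the larger factor in SCC15, with a difference of 2.18 (SE 0.21, adjusted p = 3.25e-06). SHMT2, the mitochondrial serine hydroxymethyltransferase, was the 1 member that rose in SCC15 and fell in SCC25 (1.53 in SCC15 and -0.23 in SCC25), and 2 did the reverse.

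Endoplasmic reticulum chaperones rose in 20 of 22 cases in SCC15 and 18 in SCC25, and 3 were opposite: the cyclophilin gene PPIB (1.28 in SCC15 and -0.41 in SCC25), the disulfide isomerase gene P4HB (1.36 in SCC15 and -0.33 in SCC25) and PDIA6. The median difference of these chaperones moved from 0.47 to 0.18 with equal totals, with 7 positive and 5 negative differences. The list of cytosolic heat shock genes, which also holds the mitochondrial chaperonin genes HSPD1 and HSPE1, leaned the other way. Its medians were 0.68 in SCC15 and 1.17 in SCC25. CRYAB, which encodes alpha-B crystallin, rose by 3.05 in SCC15 and 5.80 in SCC25, and the HSP110 relative HSPA4L fell in SCC15 and rose in SCC25 (-0.73 in SCC15 and 1.17 in SCC25). HSPA6, an inducible HSP70 gene, rose more in SCC15, from 13.6, 32.4 and 22.7 to 1529, 1191 and 1278 normalized counts, than in SCC25, from 18.5, 23.4 and 28.3 to 97.9, 79.0 and 121, a difference of 3.84 (SE 0.38, adjusted p = 4.46e-06). Proteasome subunits had 13 positive and 3 negative differences among 31 (16 and 10 without SCC15 ACGs replicate 3, 9 and 9 with equal totals), and the degradation factors of the endoplasmic reticulum 5 positive and 7 negative among 25 (6 and 11 without SCC15 ACGs replicate 3, 3 and 14 with equal totals).

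Of the 13 protein genes of the mitochondrial genome, 13 fell in SCC15 and 11 in SCC25. MT-CO2, a cytochrome oxidase subunit, fell in both lines, more in SCC15 (-2.49 in SCC15 and -0.48 in SCC25), and MT-ND4, a Complex I subunit, fell in SCC15 and rose in SCC25 (-0.57 in SCC15 and 0.74 in SCC25). Nuclear Complex I subunits and mitochondrial ribosomal proteins had more even counts without SCC15 ACGs replicate 3 and with equal totals. The former had 9 positive and 3 negative differences among 36 (14 and 11 without SCC15 ACGs replicate 3, 6 and 7 with equal totals), and the latter 19 positive and 8 negative among 76 (23 and 21 without SCC15 ACGs replicate 3, 14 and 17 with equal totals). In the sterol and fatty acid list, 6 members rose in both lines but more in SCC25, such as the HMG-CoA synthase gene HMGCS1 (2.05 in SCC15 and 3.55 in SCC25). The fatty acid synthase gene FASN fell in SCC25 by 1.37 on the log2 scale and stood at 0.48 (95% interval 0.026 to 0.93) in SCC15, where it rose without SCC15 ACGs replicate 3. NRF2 targets had 11 positive and 4 negative differences among 28 (13 and 8 without SCC15 ACGs replicate 3, 9 and 9 with equal totals). The autophagy and lysosome list had 14 positive and 8 negative differences among 39, and its cathepsin genes CTSB (0.82 in SCC15 and -2.31 in SCC25) and CTSD (1.15 in SCC15 and -0.60 in SCC25) were opposite.

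Of the genes called in SCC15 only and with SCC25 within 0.3 log2 units of no change, EIF4A1, ENO2, NDRG1 and the repressor gene KLF11 had the largest differences among those that rose. NDRG1, a stress-induced protein, rose from 1095, 1025 and 1057 to 6750, 6560 and 6270 normalized counts in SCC15 and stood at 4813, 4990 and 4624 with DMSO and 4630, 4677 and 5098 with squamocin in SCC25. The difference was 2.63 (SE 0.093, adjusted p = 1.47e-09). KLF11 changed by 1.96 in SCC15 and by -0.085 (95% interval -0.25 to 0.081) in SCC25. With equal totals all 4 fell in SCC25 and so were opposite. Those with the largest differences among genes that fell were TMEM19 (-1.92, with 0.12 (95% interval -0.10 to 0.35) in SCC25), KRCC1 (-2.24, with -0.15 (95% interval -0.31 to 0.0021), and lower in both lines with equal totals), RNF227 (-1.76, with 0.20 (95% interval 0.012 to 0.39)) and FAM222B (-1.88, with 0.042 (95% interval -0.17 to 0.26)). In SCC15, TMEM19 was at 547 ± 33.3 with DMSO and 147 ± 34.8 with squamocin, and in SCC25 at 313 ± 19.6 with DMSO and 342 ± 45.6 with squamocin (normalized counts, mean ± SD, n = 3).

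Of the genes called in SCC25 only and with SCC15 within 0.3 log2 units of no change, MAP1B, OLR1, OASL and MYBL1 had the largest differences among those that rose. MAP1B, a microtubule-associated protein of neurons, was at 580, 575 and 656 normalized counts in SCC15 with DMSO and 657, 696 and 418 with squamocin, and at 20.1, 26.1 and 12.4 and 252, 243 and 231 in SCC25. The SCC15 groups overlapped, and the difference was -3.69 (SE 0.33, adjusted p = 1.70e-06). OLR1, a receptor for oxidized lipoprotein, rose by 2.77 in SCC25 and was at -0.056 (95% interval -0.28 to 0.17) in SCC15. MYBL1, a transcription factor of the MYB family, rose by 2.32 and was at -0.24 (95% interval -0.47 to -0.014). Without SCC15 ACGs replicate 3, MAP1B rose in both lines, and OLR1, OASL and MYBL1 were opposite, as they were with equal totals. By the same rule, genes that fell included IFITM1, MATN2 (-2.75, with 0.072 (95% interval -0.21 to 0.36) in SCC15) and GPRC5B (-2.67, with 0.022 (95% interval -0.39 to 0.43)). With equal totals IFITM1 and MATN2 fell in both lines.

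Some genes moved together in the 2 lines but by very different amounts. ADGRG1, an adhesion receptor, rose from 41.8, 35.6 and 45.4 to 723, 699 and 428 normalized counts in SCC15, and from 2485, 2558 and 2481 to 3133, 3152 and 3567 in SCC25, a difference of 3.46 (SE 0.23, adjusted p = 1.67e-07). The epithelial transcription factor gene ELF3 behaved alike (3.40 in SCC15 and 0.22 in SCC25), although with equal totals it was called in SCC15 only. SERPINB2, plasminogen activator inhibitor 2, rose more in SCC25 (1.36 in SCC15 and 5.16 in SCC25). IFNL2, an interferon lambda gene, rose from 70.0, 68.0 and 86.4 to 154, 214 and 317 normalized counts in SCC15. In SCC25 it had 2, 3 and 2 reads with DMSO and 585, 570 and 588 normalized counts with squamocin, at least 224-fold higher against a floor of 3 reads per library. DHFR2 and TRAM2 fell in both lines, more in SCC15 (-3.00 in SCC15 and -0.58 in SCC25 for DHFR2, and -2.38 in SCC15 and -0.35 in SCC25 for TRAM2).

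Lists for functions that the study followed both in RNA and at the protein level were also compared. E1 and E2 ubiquitin enzymes had a median of 0.46 in SCC15 and 0.66 in SCC25, and leaving out SCC15 ACGs replicate 3 moved their counts. They had 8 positive and 10 negative differences among 37 (9 and 18 without SCC15 ACGs replicate 3, 4 and 19 with equal totals). Polycomb components had 5 positive and 9 negative differences among 31 (7 and 14 without SCC15 ACGs replicate 3, 4 and 15 with equal totals), and the MAX network 3 positive and 5 negative among 14 (3 and 9 with equal totals). MYC, chosen after its values were seen since the study centres on its protein, was at 636, 618 and 612 normalized counts in SCC15 with DMSO and 1170, 983 and 1003 with squamocin, and at 6310, 6589 and 6418 and 1824, 1674 and 1789 in SCC25. Its RNA rose in SCC15 by 0.75 and fell in SCC25 by 1.87 on the log2 scale, a difference of 2.62 (SE 0.10, adjusted p = 4.28e-09), and with equal totals the SCC15 change was 0.26 (adjusted p = 0.119).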

How the data were processed

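RNA of SCC15 and SCC25 cells given squamocin or DMSO for 24 h was sequenced (NEBNext Ultra libraries, which do not mark strand), aligned to GRCh38 with HISAT2 2.0.5 and counted with featureCounts 1.5.0-p3 per the study's methods. The authors deposited 1 table per line. The deposited signal of the authors is a read count divided by 1 size factor per library, since 100% of values came back as whole reads (tolerance 0.01 reads), although the SCC25 columns are named FPKM. Their columns of means, fold changes and p-values were not used. Depth was 16665563 to 22748845 reads, and a floor of 3 reads marks what a library can show. Size factors were set within each line.

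Values were joined by gene ID and tested on log2(value + 1) with limma 3.58.1 (R 4.3.3; 4 group means, trended empirical Bayes, two-sided, Benjamini-Hochberg over 14454 genes with a mean of at least 10 in each table); within-line calls came from a fit per line. The threshold was an adjusted p of 0.05. Named were, among coding genes with a mean of at least 100 in each table, the 6 largest opposite differences in each direction. Also named were the 4 largest per line and direction where the other line changed by less than 0.3, and the 2 largest same-direction differences of each kind. For these, treatments did not overlap in any line that was called. In each of 41 function lists, up to 4 called members plus opposite ones were named without conditions on level, coding or overlap. List members without a gene ID were dropped. Alternatives covered pseudocounts, filters, scaling, edgeR 4.0.16, DESeq2 1.42.0, weights, a replicate block and leaving out each library, and the fits were tested on simulated data. Some genes that the rule names are not reported here. The genes, lists and rule were chosen with earlier results of these data known.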

Additional observations from a re-analysis of the deposited data

Results flagged for a closer look

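The responses of the 2 lines to the same treatment differed for each gene listed here, by the limma test of the difference itself over all 12 libraries, and these are the sizes of that difference (SCC15 log2 fold change minus SCC25 log2 fold change). Each kept its sign and its call in every alternative setting in which the gene was tested, among 7540 of 14454 genes called in the main test. IFNL2 also had a called difference, but its size depends on the 2 to 3 reads in the SCC25 DMSO libraries and is not given. Groups of 3 libraries are too small for the test of single outlying libraries.

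Among the genes with the largest opposite responses, the difference was 6.32 for CA9, 3.86 for TGFBI, 3.59 for CXCL8, 4.50 for EVA1C, 3.86 for C15orf48 and 5.22 for TIMP3. It was also -3.33 for FGF2, -3.17 for SPRY4, -3.13 for IL7R, -3.04 for RCAN1, -3.59 for VGLL3 and -4.26 for HIST1H2BJ. For the glycolysis, cycle and hypoxia genes it was 2.10 for GAPDH, 2.75 for ALDOA, 1.93 for ALDOC, 1.62 for GPI, 1.98 for PFKP and 1.77 for PGK1. It was also 1.51 for ENO1, 1.94 for ENO2, 1.30 for SLC16A3, 2.32 for TKT, 1.35 for IDH2 and 1.12 for MDH2. Further values were 1.00 for SDHA, 2.30 for PLOD1, 1.59 for P4HA1, 2.63 for NDRG1 and 2.02 for DDIT4. It was, for the translation genes, 2.03 for RPL3, 1.67 for RPS14, 2.25 for NOB1, 1.69 for MYBBP1A, 1.45 for FBL and 2.03 for EIF3L. It was also 1.98 for EIF3D, 1.95 for EIF4A1 and 1.80 for QARS. In the replication and mitosis genes it came to 2.64 for MCM2, 1.98 for MCM3, 2.18 for MCM5, 1.87 for POLD1, 1.76 for CDT1 and -1.80 for KIF14. It was also -1.47 for SGO1, -1.68 for BIRC5 and -1.48 for CENPA.

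Among the p53, apoptosis and signalling genes it stood at -2.44 for TIGAR, -1.62 for BTG2, -1.10 for MDM2, -1.27 for SPRY2, -1.30 for SPRED1 and 4.43 for DUSP9. It was also 2.98 for FOS, 3.88 for EGR3, -1.64 for TGFBR1, -1.44 for ACVR1, 3.85 for ID1 and 2.62 for MYC. For the epithelial and matrix genes the values were 2.20 for PKP1, 1.60 for PKP3, 1.30 for JUP, -1.25 for TJP1, 7.03 for KRT15 and 4.83 for S100A9. It was also 2.45 for LOXL2 and -3.42 for ZEB1. The interferon and cytokine genes had differences of -2.68 for OASL, -3.57 for RSAD2, -2.27 for HERC5, -1.88 for DDX58, -2.21 for CXCL11 and 2.84 for IFITM1. It was also 2.16 for IL1B, -2.98 for IL6 and -4.00 for CCL5. The stress, sterol and organelle genes differed by 2.18 for GDF15, 1.76 for SHMT2, 1.70 for PPIB, 1.69 for P4HB, -2.75 for CRYAB and -1.90 for HSPA4L. It was also 3.84 for HSPA6, -2.01 for MT-CO2, -1.32 for MT-ND4, -1.50 for HMGCS1, 1.85 for FASN and 3.13 for CTSB, 1.75 for CTSD. The other genes of 1 line or of unequal size had values of 2.04 for KLF11, -2.04 for TMEM19, -2.08 for KRCC1, -1.96 for RNF227, -1.92 for FAM222B and -3.69 for MAP1B. It was also -2.82 for OLR1, -2.56 for MYBL1, 2.83 for MATN2, 2.69 for GPRC5B, 3.46 for ADGRG1 and 3.18 for ELF3. Further values were -3.80 for SERPINB2, -2.42 for DHFR2 and -2.04 for TRAM2.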

How the results depend on the processing

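Each count was repeated under 26 alternative settings. With equal library totals in place of the deposited size factors, 2397 genes had a positive difference, 331 rose in SCC15 and fell in SCC25, 1240 did the reverse, 254 rose and 1103 fell in SCC15 only, 260 rose in both lines but more in SCC15, 424 rose in both but more in SCC25, and 1427 fell in both but more in SCC15. With array weights, which give SCC15 ACGs replicate 3 a weight of 0.0474, the opposite classes held 1200 and 1099 genes, 1303 genes rose in both lines but more in SCC25, and 963 fell in both but more in SCC25. Requiring an absolute log2 value above 1 for each call left 1585 positive and 1527 negative differences, 32 and 30 opposite genes, 483 and 608 that rose or fell in SCC25 only, 52 and 77 that rose in both lines (more in SCC15, more in SCC25), and 58 and 73 that fell in both. Calls of each line taken from the joint fit gave 929 genes that rose and 906 that fell in SCC15 only, against 935 and 938 in SCC25 only. TMM factors gave 3377 positive and 4201 negative differences.

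Leaving out 1 library at a time gave 448 to 1270 genes that rose in both lines but more in SCC25, with the highest count without SCC15 ACGs replicate 3, and 308 to 898 that fell in both but more in SCC25, with the highest again without that library and the lowest without SCC15 DMSO replicate 2 (309 without either of its group mates). It gave 547 to 1169 and 463 to 1010 opposite genes. No gene given with a difference in the report reversed or lost its difference call in these settings, and 284 of 312 class counts moved by less than 1.5 times. A count that holds can hide a change of members. With equal totals 1213 genes rose in SCC25 only, but only 338 of the main 1210 (27.9%) were among them. Of the 1177 that fell in SCC25 only, 344 (29.2%) stayed. Apart from the settings named, the cause of a move was not tested.

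The replicate numbers do not pair the samples: deviations of ACGs and DMSO libraries with the same number had correlations of -0.0449 to 0.0132. With the replicate block 3564 positive and 3525 negative differences were called.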
